A study of Homo sapiens with 8 samples.

Results

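HOX genes are the homeobox transcription factor genes that give cells their position along the axis from hindbrain to tail. The members described here are the protein-coding genes whose symbol is HOXA, HOXB, HOXC or HOXD followed by a number, and there are 39 of them among 58217 annotated genes with an estimate in the deposited files. They were chosen by symbol alone, without the antisense and other noncoding genes of the clusters. Of the 39 genes, 22 were among the 18201 genes with enough counts to be tested between substrates.

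The cells were oligodendrocyte progenitor cells (OPCs) differentiated from the established line H9 of human embryonic stem cells, with no forced expression of SOX10. All groups were OPCs of this line in the same OPC medium, which holds retinoic acid, a smoothened agonist and basic FGF per the study's methods, after a neural induction that also used retinoic acid. The groups differed in the coating on which the cells were kept for 2 days. Matrigel, a basement membrane extract from a mouse tumor, was the control, VN was full-length vitronectin, and VNP2 was a designed vitronectin-derived peptide carried on a mussel adhesive protein. There were 2 Matrigel libraries (replicates 2 and 3), 3 VN libraries and 3 VNP2 libraries of polyadenylated RNA, all from 1 cell line, and no source used here says whether the replicates came from separate differentiations, so the p-values measure the spread between these libraries.

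In mammals the HOX genes lie in 4 clusters, and the genes at the same place in different clusters form paralog groups, numbered from 1 at the anterior end to 13 at the posterior end. They are switched on in this order, and retinoic acid is a known inducer of the anterior groups, while the low-numbered groups are used in the hindbrain, the middle groups in the cervical and thoracic cord and the highest groups in the lumbar and sacral cord. The forebrain and the midbrain lie in front of the HOX domain and carry other homeobox genes, such as OTX2 and SIX3 in the forebrain. HOX proteins bind DNA together with cofactors of the PBX and MEIS families.

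Salmon's estimated counts added up to between 37997896 and 39429453 per library. VN replicate 1 stood apart from the other libraries of its group: over genes, the median chi-square between it and the other VN libraries was 2.25 and 2.62, whereas it was 0.782 between VN replicates 2 and 3, 0.707 on Matrigel and 0.767 to 1.16 on VNP2, against 0.455 from sampling alone. Of 8 OPC markers, 6 were detected at a mean of at least 1 TPM (transcript abundance scaled to library total and transcript length) on every substrate, among them OLIG2 at 40.0 to 54.6 TPM. SOX10, a defining gene of the lineage, had 0 counts in both Matrigel libraries and at most 4.89 normalized counts elsewhere. The RNA came from all cells of a well, so fewer cells of a type and less RNA per cell cannot be told apart in any value below.

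The level of each HOX gene was first followed along the clusters in TPM, a unit per transcript length that allows genes to be compared. On every substrate, 19 of the 39 genes reached a mean of 1 TPM, among them HOXA2 to HOXA5, HOXB1 to HOXB9, HOXC4 and HOXC5, and HOXD1, HOXD3 and HOXD4. The same 19 genes passed at 0.5 TPM, and 14 passed at 5 TPM. The other 20 genes were at 0.752 TPM or lower in all 8 libraries. Of these, 7 had no count in any library, namely HOXA9, HOXA11, HOXC10, HOXC11, HOXC12, HOXD10 and HOXD12, where 3 counts over all 8 libraries would amount to 0.00965 CPM. The 12 genes of paralog groups 10 to 13, the groups of the lumbar and sacral cord, held 36 counts in all, and their highest value in any library was 0.117 TPM. Intervals and floors of this kind cover counting error only.

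**Figure D1:**
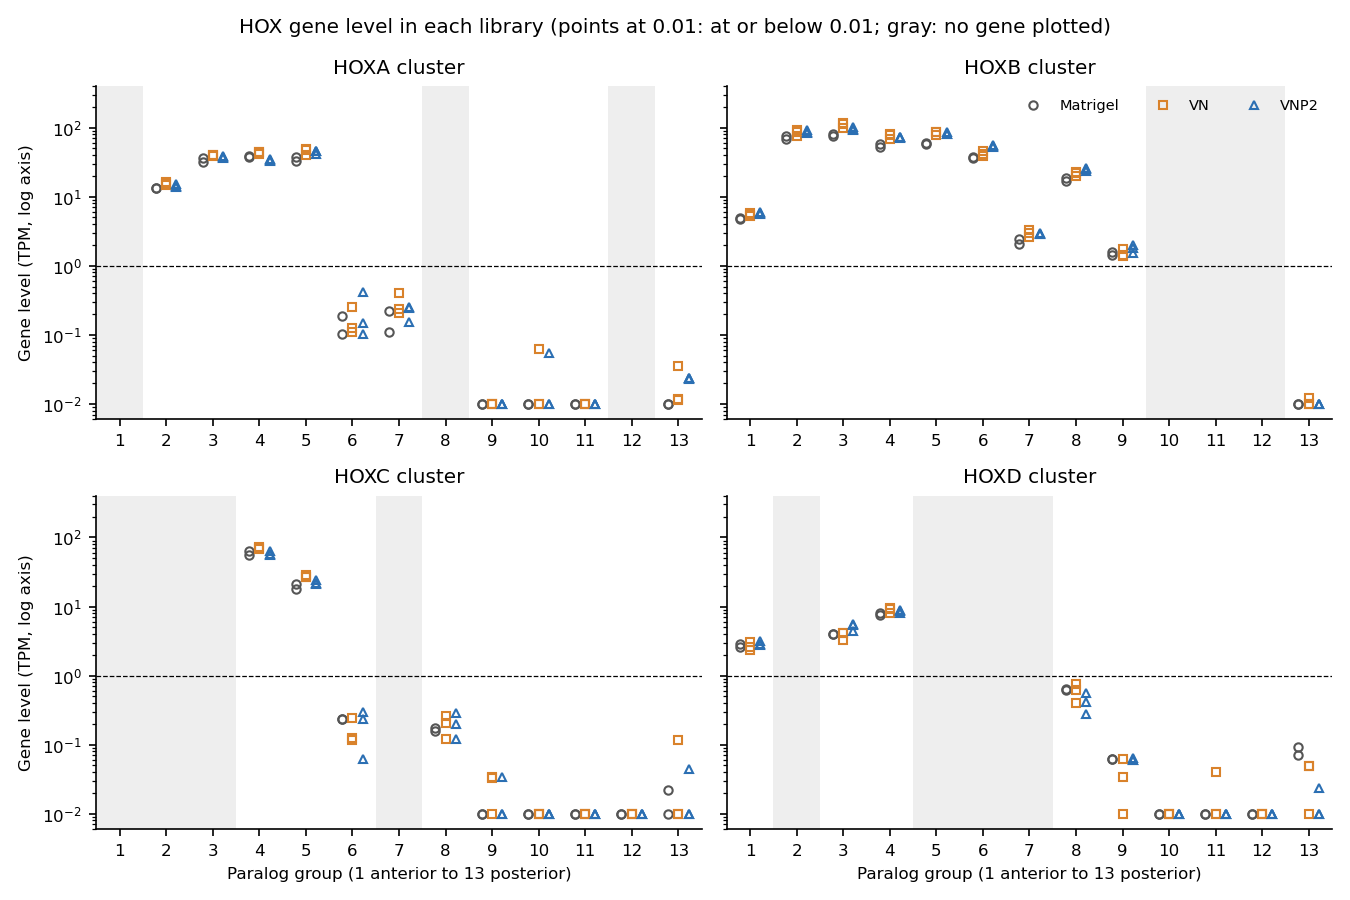
Level of 38 of the 39 HOX genes in TPM (vertical, log axis) against its paralog group (horizontal), in 4 panels by cluster, with 1 point per library and the substrates side by side; the dashed line is 1 TPM, gray bands mark paralog groups with no gene plotted, and values at or below 0.01 are drawn at 0.01. In HOXA the level drops from a mean of 42.9 TPM at group 5 to 0.181 at group 6, whereas HOXB stays above 1 TPM up to group 9.

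HOXB was the main cluster, with 57.8 to 62.9% of all HOX TPM in every library. The summed level of its 10 genes (chromosome 17, 48528526 to 48729178, GRCh38) was 329 and 325 (Matrigel), 388, 449.6 and 442 (VN) and 421, 436 and 429 (VNP2) TPM. HOXA (chromosome 7) had 11 genes and a summed level of 139 and 148 (Matrigel), 161, 176 and 176 (VN) and 154, 162 and 158 (VNP2) TPM. The 9 HOXC genes (chromosome 12, 53938765 to 54056030) added up to 84.5 and 73.7 (Matrigel), 94.2, 98.4 and 98.8 (VN) and 79.6, 88.5 and 77.6 (VNP2) TPM. HOXD (chromosome 2, 176092891 to 176190907), also of 9 genes, was the lowest cluster, with 15.3 and 15.2 (Matrigel), 15.6, 16.7 and 15.8 (VN) and 16.8, 17.8 and 16.6 (VNP2) TPM. In HOXA, HOXB and HOXD every Matrigel library lay below every VN and VNP2 library, whereas in HOXC the VNP2 libraries overlapped those of Matrigel. Part of this is a matter of scale, so the comparisons below use normalized counts. For the 15288 genes with a mean of at least 1 TPM, the median log2 TPM ratio to Matrigel was 0.08 on VN and 0.065 on VNP2. In normalized counts, the 4 tested HOXD genes had a median log2 fold change of -0.13 for VN against Matrigel, with 1 positive and 3 negative. For VNP2 against Matrigel it was 0.056, with 3 positive and 1 negative.

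Within HOXB the levels did not fall evenly from front to back. HOXB3, with 74.7 to 117 TPM, was the most highly expressed HOX gene by its mean of 96.3 TPM, followed by HOXB2 with 69.2 to 93.0 TPM and HOXB5 with 57.6 to 86.7 TPM, ranges that overlap. HOXB2 and HOXB3 are hindbrain genes, and HOXB4 and HOXB5 begin near the border between hindbrain and cord. HOXB1, which marks the fourth rhombomere of the hindbrain and responds directly to retinoic acid, was at 4.70 to 5.96 TPM. HOXB7 was at 2.07 to 3.33 TPM, below both of its neighbors: HOXB6 was 12.5 to 18.6 times higher than HOXB7 in the same library, and HOXB7 was at 0.114 to 0.152 of HOXB8. HOXB8 had 16.8 to 26.0 TPM, and HOXB9, the most posterior HOX gene detected in these cells and a thoracic gene, had 1.45 and 1.58 (Matrigel), 1.36, 1.42 and 1.73 (VN) and 2.03, 1.53 and 1.81 (VNP2) TPM. The next gene, HOXB13, is 98406 bases further along and had 1 count in all libraries together.

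In HOXA and HOXC the drop fell between groups 5 and 6. HOXA5 (33.3 to 49.7 TPM), HOXA4 (32.8 to 44.0 TPM) and HOXA3 (32.1 to 40.1 TPM) were the highest HOXA genes, and their ranges overlap. HOXA5 was followed by HOXA6 at 0.102 to 0.416 TPM, a ratio of 112 to 429 within a library with a median of 334, although only 1727 bases separate the annotated genes. HOXC4 (55.1 to 71.9 TPM) and HOXC5 (18.2 to 28.4 TPM) were high, and HOXC6, 2029 bases from HOXC5 and the gene with the next highest mean of that cluster, was at 0.0614 to 0.293 TPM, with a ratio of 74.4 to 397 and a median of 104. In HOXD the last detected gene was HOXD4 (7.62 to 9.54 TPM), after HOXD3 (3.24 to 5.49 TPM) and HOXD1 (2.32 to 3.21 TPM). HOXD8, 18526 bases from HOXD4, had 0.278 to 0.752 TPM, and the ratio of the pair was 12.3 to 29.1. No group differed in where these edges lay, since the same 19 genes were detected on Matrigel, VN and VNP2.

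The start region of HOXA4, an expressed gene, and that of HOXA6, the first silent gene beyond the HOXA edge, are shown to set both sides of this edge side by side, since HOXA5 has no entry in the sequence table used. Both are the 250 bases before the RefSeq start (GRCh38.p14), read on the minus strand, with the CCAAT box, or its complement ATTGG, in capitals. The HOXA4 window is chr7:27130758-27131007, upstream of the gene's first exon in the RefSeq model. The RefSeq start lies 23 bases from that of ENST00000610970, which held 7.63% of HOXA4 TPM. Of the main transcripts, ENST00000360046 (44.6%) starts at 27130799, inside the window. ENST00000511914 (47.8%) starts at 27130191, downstream of it, so the window is not the start region of all HOXA4 RNA. The HOXA6 window is chr7:27147775-27148024.
HOXA4: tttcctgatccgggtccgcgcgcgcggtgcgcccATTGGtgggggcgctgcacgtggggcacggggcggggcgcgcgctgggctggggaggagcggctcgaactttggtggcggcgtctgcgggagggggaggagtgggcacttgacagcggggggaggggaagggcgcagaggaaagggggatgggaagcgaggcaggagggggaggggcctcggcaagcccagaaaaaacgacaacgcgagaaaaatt
HOXA6: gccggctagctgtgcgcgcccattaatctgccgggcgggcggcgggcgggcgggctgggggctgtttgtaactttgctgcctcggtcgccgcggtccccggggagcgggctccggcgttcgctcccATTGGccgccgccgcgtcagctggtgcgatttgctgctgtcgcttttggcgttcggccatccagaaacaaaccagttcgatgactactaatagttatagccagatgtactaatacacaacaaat
The windows hold 26 and 27 CG dinucleotides against a median of 11 over all promoters of the table, and each holds 1 CCAAT box, although the genes' levels differ by a large factor. The table had 27 promoter entries for 20 of the 39 HOX genes. HOXA5 and HOXB2 to HOXB9 had no entry, so these shares leave out every HOXB gene that passed a test below. CCAAT on either strand occurred in 18 of the 27 entries (66.7%), against 32% of all 35116 entries. The other motifs searched on both strands were TGATNNAT, a form bound by PBX and HOX together, in 3 entries (11.1%, against 6.47% of all), AGGTCA, the half-site of retinoic acid receptors, in 0 (against 12.1%), TTTATG, a caudal-type site, in 3 (against 9.64%), TATAAA in 5 (against 10.7%) and GGGCGG in 13 (against 42.6%). Several of the 27 entries belong to the same gene, so they are not independent, and these shares are descriptions of sequence only.

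The study's question was how the coatings alter the cells, and for the HOX genes this was followed with edgeR's quasi-likelihood test over all 8 libraries, with Benjamini-Hochberg adjustment over all 18201 genes. A gene is said below to have risen or fallen where its adjusted p was under 0.05. On VN, 5 of the 22 tested HOX genes rose over Matrigel and 0 fell, whereas 15.3% of all tested genes changed, 5.66% upward and 9.60% downward. On VNP2, 5 rose over Matrigel and 1 fell, against 16.6% of all genes, 7.44% upward and 9.13% downward. Between VNP2 and VN, 1 was higher and 1 was lower on VNP2, against 5.10% of all genes, 3.09% upward and 2.01% downward. Across the 3 substrates together, 7 HOX genes changed, against 19.3% of all genes. No HOX gene was lower on VN than on Matrigel at an unadjusted p under 0.05 either (0 of 22), and DESeq2 likewise called 5 higher and 0 lower. The shares of HOX genes were not tested against those of all genes.

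The size of the changes was small, and most fold changes against Matrigel were positive. The median log2 fold change of the 22 genes was 0.15 on VN and 0.20 on VNP2 against Matrigel, where the medians of all genes were 0.0044 and 0.0024, and it was -0.013 for VNP2 against VN. Of the 22 genes, 18 had a positive value on VN and 19 on VNP2, and both counts rest on the same 2 Matrigel libraries. The values of the 2 groups were fully separate for 12 HOX genes in VN against Matrigel, where this held for 44.4% of all genes, for 13 in VNP2 against Matrigel (48.1%) and for 6 in VNP2 against VN (23.6%). Without Matrigel replicate 3, 2 genes were called in each comparison with Matrigel and 4 across the 3 substrates. That leaves 1 Matrigel library, assumed to vary like the other groups, and the log2 fold changes of the genes that lost a call kept their sign. Without VN replicate 1, the counts were 6 for VN against Matrigel, 8 for VNP2 against Matrigel, 3 for VNP2 against VN and 9 across the substrates.

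**Figure D2:**
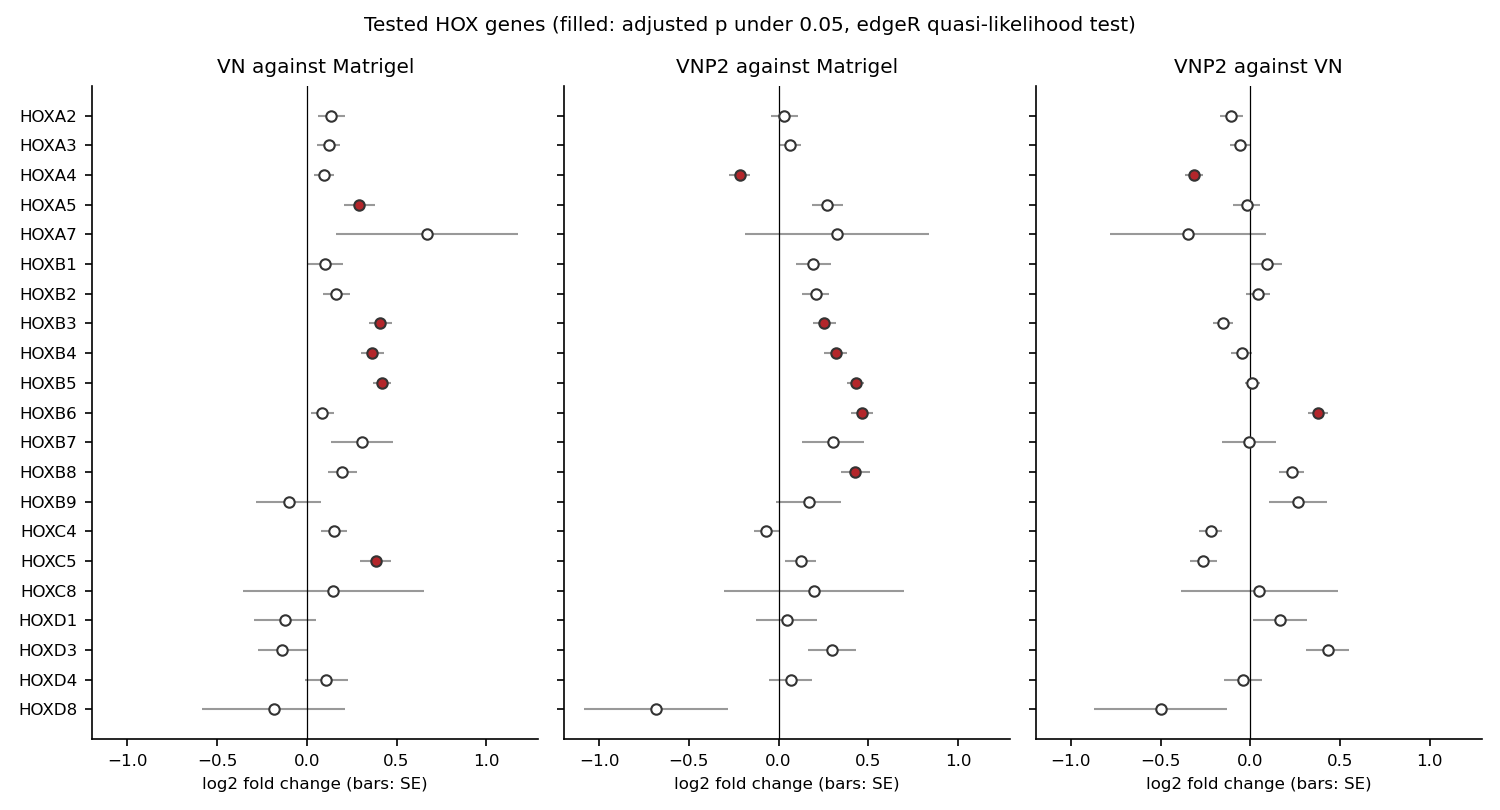
The log2 fold change (horizontal) of 21 of the 22 tested HOX genes (rows, by cluster and paralog group) in 3 panels, 1 for each pair of substrates; bars are standard errors and filled points passed an adjusted p of 0.05. The filled points lie to the right of 0 except HOXA4, and HOXD8, HOXA7 and HOXC8 have wide bars.

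The genes in the middle of HOXB, groups 3 to 5, rose on both vitronectin coatings. HOXB5 (ENSG00000120075), a factor of the border between hindbrain and cord that also acts in the enteric nervous system, had normalized counts (counts scaled for library size and transcript length) of 2488 and 2588 (Matrigel), 3272, 3466 and 3447 (VN) and 3336, 3566 and 3357 (VNP2). All 6 VN and VNP2 libraries lay above both Matrigel libraries. The log2 fold change was 0.42 ± 0.048 (SE, adjusted p = 2.4e-04) on VN and 0.43 ± 0.048 (SE, adjusted p = 1.4e-04) on VNP2, and 0.01 ± 0.042 (SE, adjusted p = 0.92) between VNP2 and VN. Its calls against Matrigel held in all 17 alternative analyses, including each library left out in turn.

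HOXB4, which is known in the hindbrain border and in blood stem cells, had 2360.3 and 2119 (Matrigel), 2663, 3058 and 2940.4 (VN) and 2828, 2828 and 2722 (VNP2). Again no VN or VNP2 library reached down to Matrigel. Its log2 fold change was 0.37 ± 0.066 (SE, adjusted p = 0.0045) on VN and 0.32 ± 0.066 (SE, adjusted p = 0.0077) on VNP2, and both calls were lost without Matrigel replicate 3. HOXB3, a hindbrain gene, had 4095 and 4340.3 (Matrigel), 5107, 5703 and 5989 (VN) and 4851, 5011 and 5246 (VNP2). The libraries were separate between each vitronectin coating and Matrigel, and those of VN and VNP2 overlapped. HOXB3 rose on the log2 scale by 0.41 ± 0.065 (SE, adjusted p = 0.0022) on VN and by 0.26 ± 0.065 (SE, adjusted p = 0.022) on VNP2, and the value for VNP2 against VN was -0.15 ± 0.057 (SE, adjusted p = 0.17), which passed in 2 of 17 alternatives, the analysis without VN replicate 1 among them. The VNP2 call did not survive leaving out Matrigel replicate 2 or 3 or VNP2 replicate 2 or 3, while the VN call held in all 17 alternatives.

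HOXB6 and HOXB8, genes of the cervical and thoracic cord, were highest on VNP2. HOXB6 (ENSG00000108511) had 1351 and 1392 (Matrigel), 1362, 1571 and 1435 (VN) and 1889, 1854 and 1935 (VNP2). The VN libraries overlapped those of Matrigel, while all 3 VNP2 libraries lay above the other 5. Its log2 fold change was 0.46 ± 0.063 (SE, adjusted p = 5.7e-04) for VNP2 against Matrigel and 0.38 ± 0.056 (SE, adjusted p = 0.0031) for VNP2 against VN, and both calls held in all 17 alternatives. For VN against Matrigel it was 0.09 ± 0.063 (SE, adjusted p = 0.4). HOXB8 had 624 and 561 (Matrigel), 635, 717 and 688 (VN) and 752, 811 and 830.1 (VNP2). The 3 groups did not overlap, with VN in the middle. The log2 fold change of HOXB8 was 0.43 ± 0.08 (SE, adjusted p = 0.0043) for VNP2 against Matrigel, a call lost without Matrigel replicate 3, and 0.20 ± 0.081 (SE, adjusted p = 0.13) for VN against Matrigel and 0.23 ± 0.07 (SE, adjusted p = 0.098) for VNP2 against VN, neither of which passed.

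The remaining HOXB genes did not pass in any pair. HOXB1, HOXB2, HOXB7 and HOXB9 had log2 fold changes of 0.10 ± 0.10, 0.16 ± 0.075, 0.31 ± 0.17 and -0.10 ± 0.18 (SE) for VN against Matrigel. For VNP2 against Matrigel their log2 fold changes were 0.19 ± 0.10, 0.21 ± 0.075, 0.30 ± 0.17 and 0.17 ± 0.18 (SE). The errors of HOXB7 and HOXB9, with 57.4 to 106.8 normalized counts per library, leave room for changes of the size seen in HOXB6. In HOXB as a whole, all 9 tested genes had a positive value on VNP2 and 8 on VN.

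**Figure D3:**
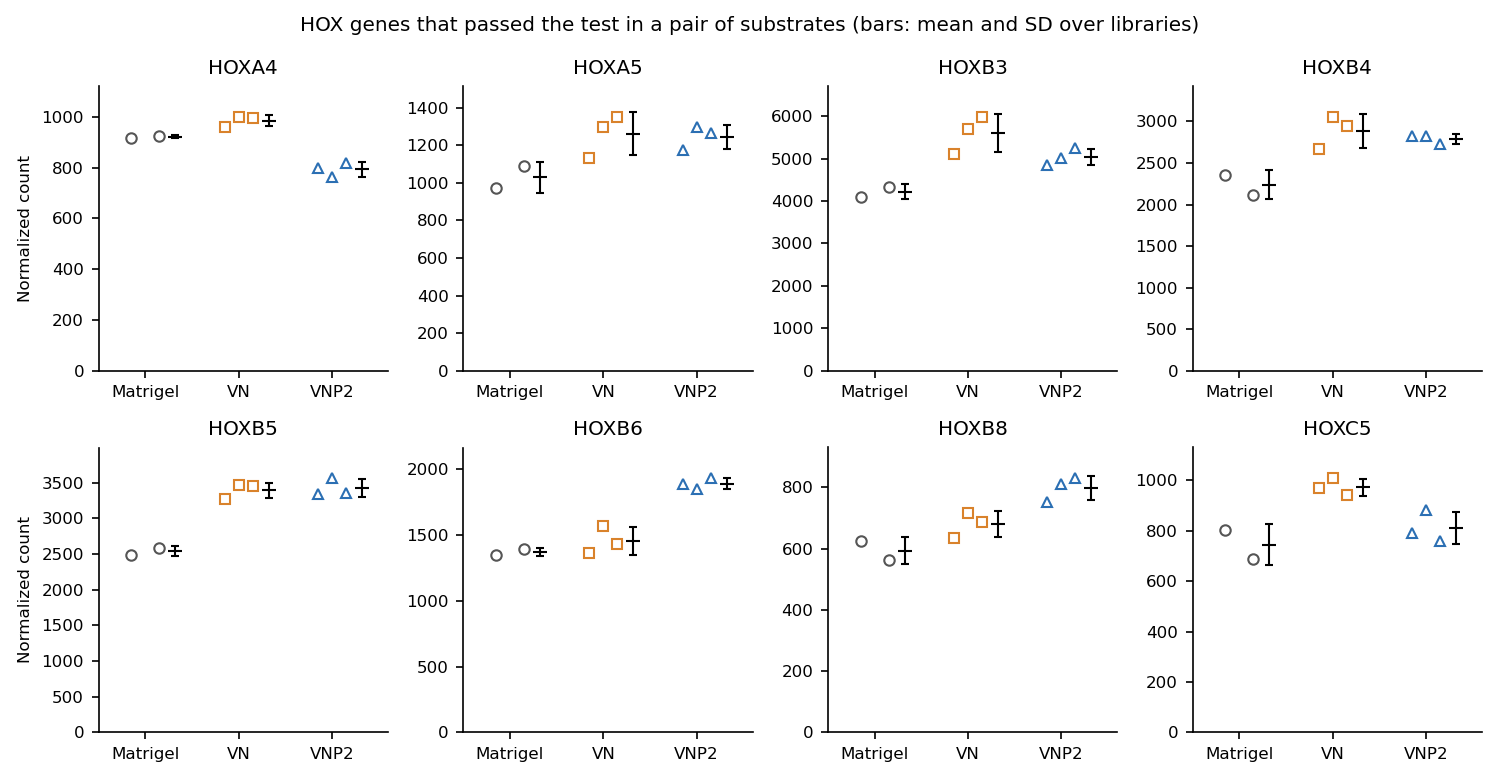
Normalized counts (vertical, from 0) of the 8 HOX genes that passed the test in at least 1 pair of substrates, with 1 point per library and the mean ± SD beside it for Matrigel, VN and VNP2 (n = 2, 3 and 3). HOXB5 is higher on both vitronectin coatings, HOXB6 on VNP2, and HOXA4 is lowest on VNP2.

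HOXA4, a gene of the same paralog group as HOXB4 and of the hindbrain border, moved the other way. It (ENSG00000197576) had 918 and 925 (Matrigel), 961, 1001 and 994 (VN) and 799, 762 and 818 (VNP2). All 3 VNP2 libraries were below all the others, and the VN libraries were above both Matrigel libraries. HOXA4 fell on VNP2, with a log2 fold change of -0.31 ± 0.052 (SE, adjusted p = 0.006) against VN, held in all 17 alternatives, and of -0.22 ± 0.058 (SE, adjusted p = 0.027) against Matrigel, lost in 7 of 17, among them DESeq2 and the analyses without Matrigel replicate 2 or 3 or VNP2 replicate 1 or 2. For VN against Matrigel it was 0.10 ± 0.058 (SE, adjusted p = 0.3). HOXA5, which patterns the brainstem, the cervical cord and the lung, had 971 and 1087 (Matrigel), 1131, 1299 and 1352 (VN) and 1173, 1295 and 1263 (VNP2). Both vitronectin coatings lay above Matrigel and overlapped each other. Its log2 fold change was 0.29 ± 0.086 (SE, adjusted p = 0.044) on VN, lost in 8 of 17 alternatives, among them each library left out except VN replicate 1, and 0.27 ± 0.086 (SE, adjusted p = 0.055) on VNP2, which missed the threshold but passed in 9 of 17, DESeq2 and the analysis without VN replicate 1 among them.

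HOXA2 and HOXA3, of the hindbrain and the pharyngeal arches, did not pass in any pair. Their log2 fold changes were 0.14 ± 0.074 and 0.12 ± 0.062 (SE) on VN and 0.03 ± 0.074 and 0.07 ± 0.062 on VNP2. HOXA7 had 77 counts in all libraries together, and its standard error on VN was 0.51.

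Of the 3 tested HOXC genes, HOXC5 alone passed, on VN against Matrigel. HOXC5, a gene of the cervical cord, had 803 and 687 (Matrigel), 968, 1009 and 940.3 (VN) and 792, 883 and 759 (VNP2). The VN libraries lay above all 5 others, and those of VNP2 and Matrigel overlapped. Its log2 fold change was 0.38 ± 0.086 (SE, adjusted p = 0.014) on VN, a call lost without Matrigel replicate 3, 0.12 ± 0.087 (SE, adjusted p = 0.4) on VNP2 and -0.26 ± 0.076 (SE, adjusted p = 0.083) for VNP2 against VN, the last of which passed in 3 of 17 alternatives. HOXC4, which begins in the upper cervical cord, had 2274 and 1977 (Matrigel), 2327, 2341 and 2419.9 (VN) and 1972, 2197 and 1919 (VNP2). Here too the VN libraries were above all others. Its values were 0.15 ± 0.072 (SE, adjusted p = 0.18) for VN and -0.07 ± 0.072 (SE, adjusted p = 0.6) for VNP2 against Matrigel and -0.22 ± 0.064 (SE, adjusted p = 0.084) for VNP2 against VN, the last of which passed in 5 of 17 alternatives, DESeq2 and the analysis without VNP2 replicate 2 among them. HOXC8 had 76 counts in all.

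Of the 4 tested HOXD genes, 0 passed in any pair with edgeR or with DESeq2. With edgeR, 15.3% of all tested genes passed on VN and 16.6% on VNP2 against Matrigel, and 5.10% for VNP2 against VN. The share of HOXD genes was not tested against these. In edgeR, HOXD3 alone had an unadjusted p under 0.05, in both comparisons of VNP2. Against Matrigel that p was 0.04998, and DESeq2 gave 0 HOXD genes under 0.05 there. HOXD3, a hindbrain gene, had 198 and 194 (Matrigel), 154, 189 and 192 (VN) and 212, 259.6 and 251 (VNP2). The VNP2 libraries were above all others. The log2 fold change was 0.43 ± 0.12 (SE, adjusted p = 0.071) for VNP2 against VN, which passed in 2 of 17 alternatives, and 0.30 ± 0.13 (SE, adjusted p = 0.17) for VNP2 against Matrigel. HOXD1 and HOXD4 had values between -0.12 ± 0.17 (SE, HOXD1, VN against Matrigel) and 0.17 ± 0.15 (SE, HOXD1, VNP2 against VN). HOXD8, below the 1 TPM level, had 20.1 and 19.4 (Matrigel), 18.6, 22.1 and 11.7 (VN) and 16.8, 12.3 and 8.30 (VNP2) normalized counts, too few to settle its log2 fold change of -0.68 ± 0.40 (SE, adjusted p = 0.3) on VNP2.

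Because many HOX genes have several annotated transcripts, the levels of single transcripts were examined for the genes with the clearest VNP2 values. HOXA4 had a pair of main coding transcripts. ENST00000511914, the shorter with 982 bases, had 19.0 and 18.3 (Matrigel), 18.9, 24.8 and 23.1 (VN) and 13.1, 11.1 and 18.5 (VNP2) TPM, so that 2 of the VNP2 libraries lay below all others and the remaining library was within the Matrigel range. ENST00000360046, of 1687 bases, had 15.9 and 16.1 (Matrigel), 19.6, 16.5 and 15.8 (VN) and 20.8, 18.0 and 14.3 (VNP2) TPM, and its substrates overlapped. In HOXB6, ENST00000225648 had 28.7 and 30.3 (Matrigel), 26.5, 35.8 and 33.0 (VN) and 40.5, 42.5 and 41.7 (VNP2) TPM and ENST00000484302 had 7.06 and 7.24 (Matrigel), 11.7, 8.50 and 7.81 (VN) and 12.1, 9.97 and 12.4 (VNP2) TPM. The first was higher in every VNP2 library than in the other 5, and for the second VN and VNP2 overlapped. Salmon divides reads among overlapping transcripts by estimation, so these splits are less certain than the gene sums and were not tested.

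**Figure D4:**
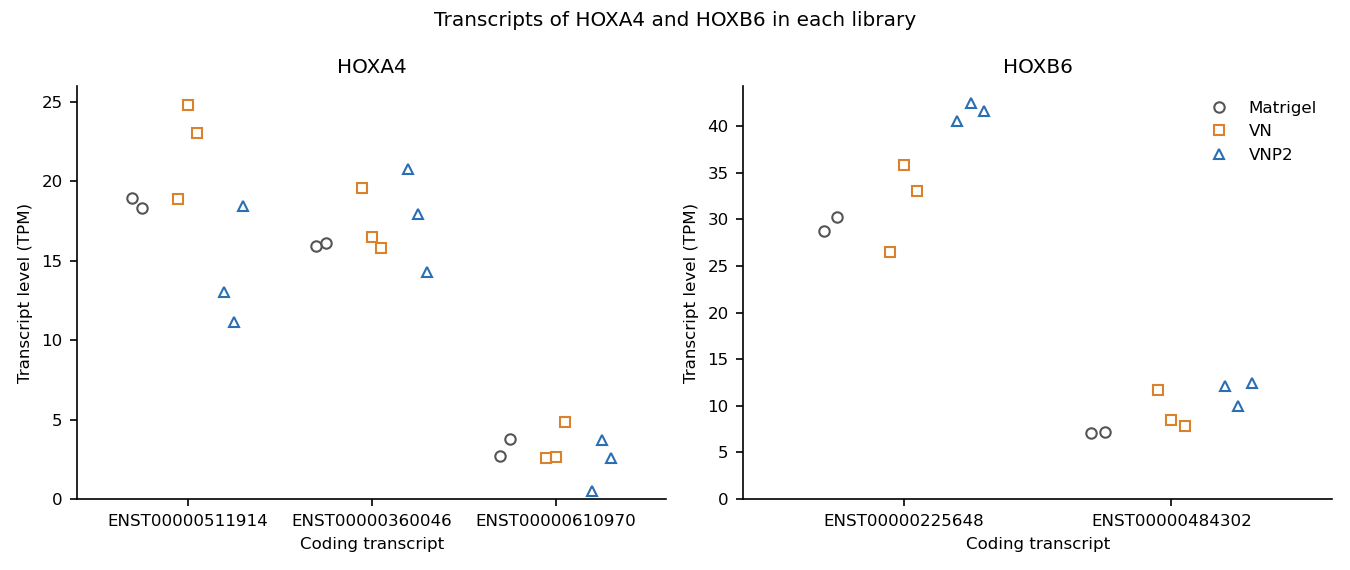
Level in TPM (vertical, from 0) of the coding transcripts of HOXA4 (left) and HOXB6 (right) with a mean of at least 0.5 TPM, with 1 point per library. For ENST00000511914 of HOXA4, VNP2 points at 13.1 and 11.1 TPM lie below all others, and the VNP2 point at 18.5 lies within the Matrigel range. The lowest point of ENST00000360046, at 14.3 TPM, is also a VNP2 library. For HOXB6 the VNP2 points of ENST00000225648 lie at 40.5 to 42.5 TPM, above all others.

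The starts of the annotated transcripts also bear on which HOX genes can be told apart. HOXC4 drew 92.6% of its TPM from ENST00000430889, which starts at position 54053877 of chromosome 12, and 0.992% from ENST00000303406, whose start at 54016931 lies before HOXC5. HOXC5 had a single transcript above 0.5 TPM, ENST00000312492, starting at 54032853. The annotated spans of HOXA3, HOXB3, HOXB7, HOXC4, HOXC6 and HOXD3 run over neighboring HOX genes on the same strand. Among these overlaps, HOXB3 runs over HOXB4 and HOXB5, and HOXB7 over HOXB8 and HOXB9. Reads in shared stretches could be assigned to either gene, and values of these pairs are uncertain to that extent. For each of the 22 tested genes, the mean normalized count here and in the authors' table had a ratio between 0.99997 and 1.0001.

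To place the HOX genes on the axis of the whole nervous system, lists of regional genes were read beside them. Of 13 forebrain genes, 9 were detected on every substrate. OTX2, SIX3 and LHX2, of the anterior neural plate and the eye field, had 115 to 148, 96.0 to 109.6 and 52.5 to 66.8 TPM. None of the 9 midbrain and isthmus genes was detected on every substrate, with EN1 at 0.302 to 0.583 TPM and PAX2 at no more than 0.108 TPM. The counts of PAX5 were 0.036 of those in the authors' table, so its low level here does not show that it was absent. Of the 9, PAX8 alone passed a test, at -1.70 ± 0.48 for VN against Matrigel and 2.02 ± 0.42 for VNP2 against VN (log2 fold change, SE), from 0.155 to 1.83 TPM. The first PAX8 call was lost in 6 of 16 alternatives, without either Matrigel library, without VN replicate 2 or 3, without length offsets and with protein-coding transcripts only, and its log2 fold change came as near 0 as -0.54. The second was lost in 3 of 16, without VN replicate 3, without VNP2 replicate 2 and with protein-coding transcripts only, with a log2 fold change of 1.28 at the lowest. Of 14 genes of the hindbrain and upstream of HOX genes, 7 were detected, while the hindbrain gene EGR2 had at most 0.364 TPM. CDX2, a direct activator of the posterior HOX genes, had no count, CDX1 and CDX4 had 12 and 1 counts in all, and none of 7 caudal progenitor genes was detected, with TBXT at 1 count and WNT3A at 0. Forebrain genes and HOX genes up to group 9 were thus present in the same RNA. The listed midbrain and isthmus genes did not reach a mean of 1 TPM on every substrate. On VNP2 alone, PAX8 had 0.952, 1.83 and 0.755 TPM, and PAX5 was measured only in part. These bulk values do not show whether the same cells held both forebrain and HOX RNA.

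**Figure D5:**
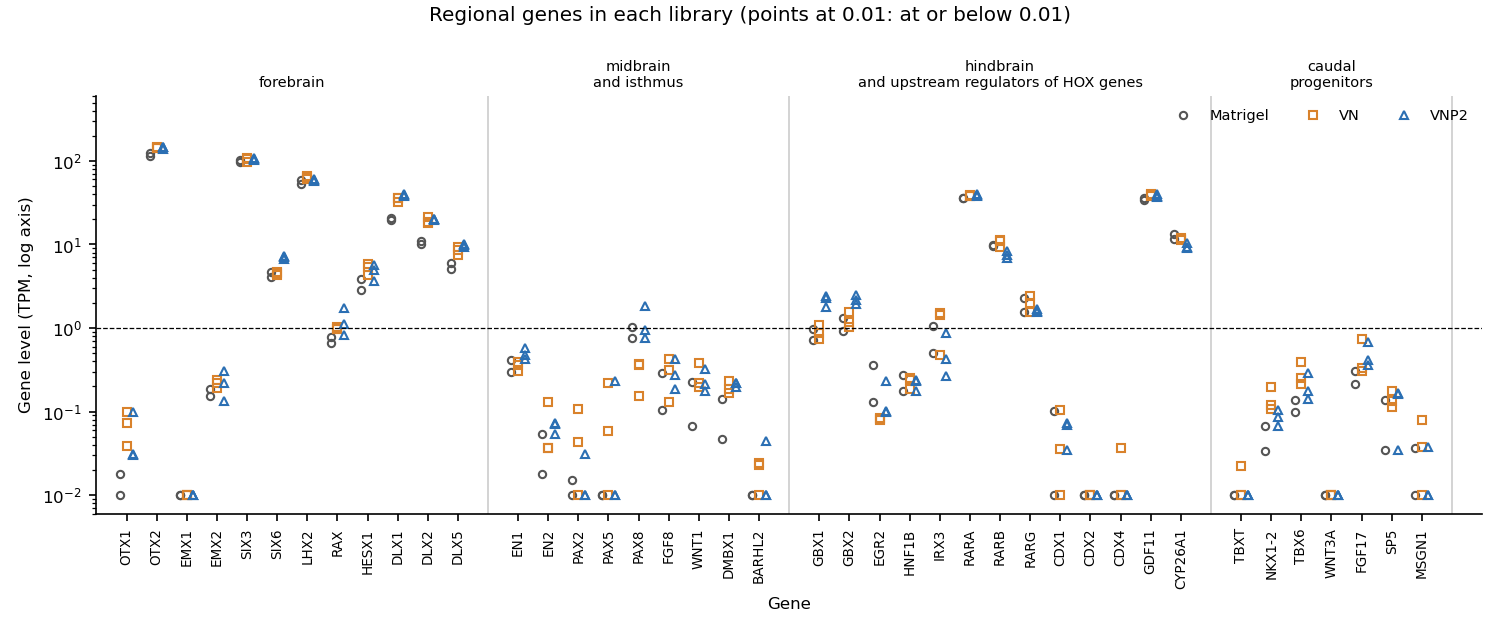
Level in TPM (vertical, log axis) of the genes of 4 regional lists (horizontal, from forebrain to caudal progenitors) that are reported here, with 1 point per library and the substrates side by side; the dashed line is 1 TPM and values at or below 0.01 are drawn at 0.01. OTX2, of the forebrain list, lies at 115 to 148 TPM, and all midbrain and caudal progenitor genes lie at or below 1.83 TPM.

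Genes of the forebrain list changed as well. Of its 11 tested genes, 4 rose on VN, and 5 rose and 1 fell on VNP2 against Matrigel. Over all tested genes, 5.66% rose and 9.60% fell on VN, and 7.44% rose and 9.13% fell on VNP2. The share of the list was not tested against these. DLX1 and DLX2, genes of ventral forebrain progenitors and of interneurons, had log2 fold changes of 0.70 ± 0.061 and 0.80 ± 0.08 (SE) on VN and 0.88 ± 0.061 and 0.87 ± 0.08 on VNP2, and DLX5 rose as well. On the same scale OTX2 rose by 0.19 ± 0.049 on VN and 0.20 ± 0.049 on VNP2 (SE), from counts that were 0.640 of those in the authors' table. SIX6, of the eye field and hypothalamus, rose on VNP2 by 0.61 ± 0.10 against Matrigel and 0.63 ± 0.088 against VN.

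The genes that act with and before HOX genes moved in both directions. All 9 TALE cofactors were detected. Of these, MEIS1 rose and MEIS2 fell on both coatings, and the 4 PBX genes, MEIS3 and the PKNOX genes did not pass. Among all tested genes, 15.3% changed on VN and 16.6% on VNP2 against Matrigel, and the share of the cofactors was not tested against these. MEIS1 had 2229.7 and 2332 (Matrigel), 2689, 2526 and 2594 (VN) and 3126, 3270.2 and 3047 (VNP2), with log2 fold changes of 0.19 ± 0.049 (SE, adjusted p = 0.025) on VN and 0.46 ± 0.049 (SE, adjusted p = 9.8e-05) on VNP2 and of 0.27 ± 0.043 (SE, adjusted p = 0.0046) between them. MEIS2 had 8229.9 and 8139 (Matrigel), 6847, 7423 and 7370.4 (VN) and 6270.5, 6728 and 6372 (VNP2), with -0.18 ± 0.045 (SE, adjusted p = 0.022) on VN and -0.34 ± 0.045 (SE, adjusted p = 5.0e-04) on VNP2. Each of these calls on VN was lost in 4 of 17 alternatives, for both genes those without Matrigel replicate 2 or 3, for MEIS1 also without VN replicate 3 and with the libraries of the pair alone, and for MEIS2 also without length offsets and with protein-coding transcripts only, where its log2 fold change was -0.11. The MEIS2 call on VNP2 was lost with protein-coding transcripts only. Among genes of retinoic acid signaling, RARB, a receptor gene that is itself induced by retinoic acid, had 565 and 565 (Matrigel), 521, 621 and 599 (VN) and 385, 463 and 418 (VNP2). RARB was lower in all VNP2 libraries than in any other, with log2 fold changes of -0.42 ± 0.10 (SE, adjusted p = 0.015) against Matrigel and -0.46 ± 0.089 (SE, adjusted p = 0.014) against VN. The first call was lost without either Matrigel library and the second without VN replicate 2 or 3 or VNP2 replicate 1 or 3. CYP26A1, which degrades retinoic acid and is also induced by it, had 483 and 419 (Matrigel), 394, 394 and 384 (VN) and 314, 353 and 312 (VNP2) and fell on VNP2 against Matrigel, with a log2 fold change of -0.47 ± 0.092 (SE, adjusted p = 0.0062) and a call lost without Matrigel replicate 2 or with protein-coding transcripts only. RARA and RARG did not pass. GBX1 and GBX2, of the anterior hindbrain, rose on VNP2 against Matrigel by 1.26 ± 0.31 and 0.90 ± 0.25 (log2 fold change, SE), from no more than 2.50 TPM in any library, and DESeq2 called neither.

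All 15 listed chromatin regulators of the clusters were detected, and 2 of them rose on VN and 3 on VNP2 against Matrigel. Over all tested genes, 15.3% changed on VN and 16.6% on VNP2, with 5.66% and 7.44% upward. JARID2, which helps to recruit the Polycomb complex that keeps HOX genes silent, had 6636 and 6495 (Matrigel), 7479.6, 7752 and 7831 (VN) and 8923, 9205 and 9055 (VNP2). On the log2 scale it rose on both coatings, by 0.23 ± 0.036 (SE, adjusted p = 0.002) on VN, 0.46 ± 0.036 (SE, adjusted p = 1.1e-05) on VNP2 and 0.24 ± 0.032 (SE, adjusted p = 0.0017) between them. KDM6B, a demethylase that removes the Polycomb mark, rose by 0.20 ± 0.037 on VN and 0.15 ± 0.037 on VNP2 (SE), and CTCF, which forms boundaries in the clusters, by 0.15 ± 0.037 on VNP2. The Polycomb core genes EZH2, EED and SUZ12 did not pass in any pair, EED from counts that were 0.279 of those in the authors' table.

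Of 25 listed noncoding RNAs of the clusters, 23 were in the annotation and 7 could be tested. HOXA-AS3 has an annotated span (chromosome 7, 27129977 to 27155928) that runs over HOXA5, HOXA6 and parts of HOXA3, HOXA4 and HOXA7. The stretch shared with HOXA4, which fell on VNP2, ends at 27130799. HOXA-AS3 had 74.7 and 77.0 (Matrigel), 172, 174 and 129 (VN) and 151, 175 and 148 (VNP2). It rose on the log2 scale by 1.06 ± 0.17 (SE, adjusted p = 0.0028) on VN and 1.06 ± 0.17 (SE, adjusted p = 0.0021) on VNP2, although HOXA6 and HOXA7, which lie within or at the end of this span, were at 0.416 TPM or lower in all libraries. HOXB-AS3, with an annotated span from HOXB3 to HOXB6 (chromosome 17, 48549630 to 48606414), had 209 and 187 (Matrigel), 268, 249.6 and 236 (VN) and 319, 311 and 286 (VNP2) and rose on VNP2 with a log2 fold change of 0.62 ± 0.11 (SE, adjusted p = 0.0026). HOTAIRM1, at the anterior end of HOXA, had 1255 and 1341 (Matrigel), 1475, 1605 and 1589 (VN) and 1292, 1509.8 and 1421 (VNP2) and rose on VN with a log2 fold change of 0.26 ± 0.073 (SE, adjusted p = 0.036), a call lost in 5 of 16 alternatives, those without either Matrigel library among them. HOTAIR and HOTTIP, of the posterior ends of HOXC and HOXA, had no count. The libraries were made with a stranded kit, and antisense and sense reads are told apart only as far as the estimation used the strand.

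Some markers of other cell types changed with the coatings beside the HOX genes. Over all tested genes, 5.66% rose and 9.60% fell on VN, and 7.44% rose and 9.13% fell on VNP2, against Matrigel. The shares of the marker lists were not tested against these. Summed TPM values include the shift of scale given above, a median log2 ratio of 0.08 for VN and 0.065 for VNP2 against Matrigel. Of 9 neuron markers, 5 rose on VN and 7 on VNP2, and their summed level was 821 to 854 TPM on Matrigel, 933 to 988 on VN and 1014 to 1039 on VNP2. Of 8 listed markers of spinal motor neurons, a cell type with HOX genes of its own, 6 were tested and 1 rose on VN and 3 on VNP2, with summed levels of 18.3 to 19.5, 25.7 to 28.1 and 35.3 to 36.5 TPM. MNX1 and LHX3, their defining genes, had 13 and 5 counts in all 8 libraries together. Of 8 OPC markers, 3 rose on VN and 6 on VNP2, with summed levels of 151 to 153, 196 to 205 and 196 to 203 TPM. Of 10 mesenchymal markers, 4 rose and 2 fell on VN and 6 rose and 2 fell on VNP2, with summed levels of 528 to 537, 603 to 639 and 525 to 561 TPM. Of 9 neural crest markers, 5 were tested and 1 rose on VNP2, with summed levels of 24.8 to 26.3, 27.1 to 30.6 and 29.8 to 31.5 TPM, and with PAX3 at 2 counts and SOX10 at 20 in all. Of 7 markers of pluripotent cells, 1 fell on VN, and 1 rose and 3 fell on VNP2, with summed levels of 91.8 to 96.8, 83.3 to 85.0 and 76.1 to 79.3 TPM. The part of these cell types in the HOX values was not tested.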

How the data were processed

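Polyadenylated RNA from H9-derived OPCs was sequenced in 8 libraries, grouped by the coating in the sample labels. The authors trimmed reads with Trim Galore and ran Salmon on GENCODE v32 transcripts. The submitters' processing notes name GRCh38.p13 and DESeq2 1.27.12. The authors deposited Salmon's estimated counts and TPM values per transcript, and gene-level normalized counts (signal) from tximport and DESeq2.

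Of 226608 transcripts, 205225 had an identifier in GENCODE v29 (GRCh38) and were kept, with 98.8 to 98.9% of the estimated counts, which added up to 37997896 to 39429453 per library. Transcripts added to the annotation later were left out. Estimated counts were summed per gene, rounded and fitted with length offsets in edgeR 4.0.16 (R 4.3.3), with TMM normalization, filterByExpr (minimum count 10, minimum total 15), all 8 libraries in 1 quasi-likelihood fit and two-sided tests. The fit kept 18201 genes and its common dispersion was 0.0037. Genes were called at an adjusted p under 0.05. Standard errors of log2 fold changes were derived from the F statistic. TPM values were summed per gene, and detection needed a mean of 1 TPM on every substrate.

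In simulated data of 17940 genes with known changes for VNP2 against Matrigel, 86 of 100 genes changed 1.5-fold and 98 of 100 changed 2-fold were called, with 10 unchanged genes. The changed genes were drawn from those with a mean of at least 100 normalized counts, and the simulated spread followed the fitted trend alone. No change below 1.5-fold was simulated, whereas the largest fold change among called HOX genes was 1.38 (HOXB6, VNP2 against Matrigel). The simulation therefore does not show how often changes of the size seen in HOX genes would be called. Sampling limits genes with few counts most.

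The HOX genes, gene lists and tests were chosen with earlier results of these data known. All 39 members enter the counts, and 1 of them and 2 of the listed genes are not reported here by name or value. Values are given for those called in any test, the 3 highest of each cluster, the last detected of each cluster and those without counts, and listed genes were named where called; other genes named in the text were chosen after their values were seen. Alternatives were DESeq2 1.42.0, RLE factors, no length offsets, other filters, a replicate block, protein-coding transcripts only, the libraries of the pair compared only, limma 3.58.1 on the authors' normalized counts (pseudocount 1), other detection levels and each library left out. Replicate numbers were not used as pairs, since the labels tie them to no shared batch. Promoter sequences were from RefSeq (GRCh38.p14).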

Additional observations from a re-analysis of the deposited data

How the results depend on the processing

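The 19 detected HOX genes were the count under a level of 0.5 TPM, with protein-coding transcripts only and without any library, and 14 passed at 5 TPM. Across the 3 substrates, 7 HOX genes were called in the main analysis, 12 without length offsets, 11 with a replicate block and 4 to 9 with each library left out. For VN against Matrigel the count of 5 ranged from 2 to 6 with each library left out, and for VNP2 against Matrigel the count of 6 ranged from 2 to 8, the 2 in both cases without Matrigel replicate 3. For VNP2 against VN the count of 2 became 4 without length offsets, without a filter and with protein-coding transcripts only, 5 with the replicate block, and 2 to 3 with each library left out. DESeq2 called 5, 6, 3 and 9 genes in the 4 tests. The causes of these shifts were not tested. With protein-coding transcripts only, the summed TPM was 308.56 for HOXB on Matrigel, 408.53 for HOXB on VNP2 and 92.5 for HOXC on VN, each lower than with all transcripts. The sign of log2 fold changes near 0 turned in some alternatives: HOXA5 in VNP2 against VN was 0.011 without length offsets and ranged from -0.091 to 0.031 with libraries left out (0.00287, 0.0313 and 0.0204 where positive), HOXB5 in VNP2 against VN was -0.00763 with protein-coding transcripts only and ranged from -0.021 to 0.027 (-0.014 without VN replicate 1), and HOXC4 in VNP2 against Matrigel ranged from -0.16 to 0.043. None of these had passed the test. Of 1096 values of single genes under alternatives, 976 kept sign and side of the threshold, 89 no longer passed, 23 newly passed and 8 turned sign. Among genes outside the clusters, leaving out Matrigel replicate 3 also removed the VN calls of DLX5, KDM6B and OTX2, that of OTX2 being lost as well without length offsets and with the libraries of the pair alone, and the VNP2 calls of OTX2, KDM6B, CTCF, GBX1 and GBX2 against Matrigel fell away in that and in other alternatives.

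Replicate numbers did not pair the libraries: same-numbered libraries of different coatings had deviations that correlated at -0.045 to 0.016, so the replicate block, with 7, 8, 5 and 11 HOX genes called in the 4 tests, removes a term that the design does not give. Depth limits HOXA7, HOXC8 and HOXD8, with 76 to 126 counts in all, and the 17 untested members; and 2 Matrigel libraries limit every comparison with Matrigel.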
